A study of Arabidopsis thaliana with 4 samples.

Results

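The 10 genes described encode enzymes that make the plant hormone abscisic acid and enzymes that break it down. They were taken by AGI locus code, a rule that uses no measured value, though the list was drawn up with earlier results of these data known, and are 10 of the 27416 genes in the tables. For synthesis they are ABA1, NCED5, NCED6, NCED9, ABA2, AAO3 and ABA3, and for breakdown CYP707A1, CYP707A2 and CYP707A3. RNA-seq libraries were made from whole seeds of Arabidopsis thaliana whose embryos were post-mature green, late in seed development. Wild type of the Col 0 ecotype was set against the ddcc mutant, which the labels also give as Col 0. The letters of ddcc stand for DRM1, DRM2, CMT2 and CMT3, which encode DNA methyltransferases, and the question put to the data is how the loss of these enzymes changes RNA levels in late seeds. Each genotype had 2 libraries, labelled as biological replicates. The labels name no alleles and do not say whether the replicates came from separate plants. The p-values thus measure only the spread between these libraries, which the fit pools largely over genes.

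Abscisic acid is built from carotenoids in plastids and finished in the cytosol. In seeds it accompanies the filling of the embryo with reserves, the onset of desiccation tolerance and the setting of dormancy, and its level falls before germination. The amount present depends on synthesis, in which cleavage of 9-cis-epoxycarotenoids by the NCED enzymes is generally held to be the limiting step, and on breakdown, which starts mainly with hydroxylation by the CYP707A cytochrome P450 enzymes.

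Of the 9 genes tested, CYP707A3 was called higher in ddcc, and the other 8 passed the test in neither direction. CYP707A3 rested on few reads, and its call was lost when any 1 of 3 libraries was left out. NCED5 was higher in both ddcc libraries than in both wild-type libraries and CYP707A2 was highest in ddcc replicate 2, but neither passed the test over all genes. ABA1 and CYP707A2 had the highest levels per kilobase in both genotypes.

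The libraries held from 1122934 reads in ddcc replicate 1 to 3416071 in wild-type replicate 1, and the log2 values of all tested genes correlated with a Pearson coefficient of 0.952 within ddcc, 0.947 within wild type and 0.907 to 0.918 between genotypes. DRM2 checked the labels: it stood at 4.85 and 8.33 normalised read counts in ddcc replicates 1 and 2 and at 39.3 and 39.6 in wild-type replicates 1 and 2, and was called lower in ddcc. DRM1 had no reads in any library, CMT2 had 2 reads in ddcc and 1 in wild type, and CMT3 was not called at a limma adjusted p of 0.891, so these genes did not check the genotype. The second wild-type library carries a source name of the mutant, while its other labels say wild type, and its DRM2 level was that of the other wild-type library. Values below are deposited normalised read counts, always in the order ddcc replicate 1, ddcc replicate 2, wild-type replicate 1, wild-type replicate 2, and they are not divided by gene length. A fold change compares log2 of the value plus a pseudocount of 1.56 normalised read counts, which understates the change of low genes. A gene was tested when its mean over the 4 libraries reached 1.56, and was called when its limma p, adjusted by Benjamini-Hochberg over 15780 genes, was under 0.05. A read count of 0 allows up to 3 reads, which is 1.59 normalised read counts in wild-type replicate 1 and 3.54 to 3.96 in the other libraries.

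Late seeds consist of embryo, endosperm and seed coat, and in bulk RNA fewer cells of a type and less RNA per cell cannot be told apart. The deposited values summed to 1325381 and 1410907 in the ddcc libraries, against 1815256 and 1705082 in those of wild type. Sums of values and shares of reads can therefore differ, and both are given for each marker list. The summed level of 8 maturing embryo markers was 65127 and 72672 normalised read counts in the mutant libraries but 97850 and 77941 in those of wild type. As a share of each library's reads it was 4.91% and 5.15%, against 5.39% and 4.57%, so the genotypes overlapped by that measure. Of these genes OLEO2, an oil body protein, was called lower, while SESA2, a seed storage albumin, stood at 3947 and 5445 against 3181 and 1606 and was not called (limma adjusted p = 0.0677). The 8 endosperm markers made up 1.79% and 2.29% of reads in ddcc, against 0.771% and 0.925% in wild type. They summed to 23736 and 32284 in ddcc, against 13999 and 15760 in wild type. Nearly all of that sum was EPR1, which was not called at a limma adjusted p of 0.150. Without EPR1 it was 62.8 and 72.4 against 39.0 and 28.3, of which the mannanase gene MAN7, called higher, gave 48.5 and 56.7 against 10.8 and 8.12. FIS2, a Polycomb gene of the early endosperm, lay the other way without overlap, at 4.65 and 2.52 against 10.4 and 13.05, and was not called (limma adjusted p = 0.125). ZOU and IKU2, also of the early endosperm, had no reads in any library. Seed coat markers summed to 117 and 110 in ddcc, against 113 and 43.2 in wild type, and none was called. As a share of reads they were at 0.00882% and 0.00780% against 0.00603% and 0.00240%, without overlap. BAN, TT2 and TT8, of the young seed coat, had no reads. TT10 stood at 82.4 and 65.6 against 61.4 and 6.78, and TT12 at 26.0 and 26.6 against 37.0 and 29.3. Silique wall and leaf markers made up 0.00712% and 0.00651% of reads in ddcc, against 0.00158% and 0.00139% in wild type. They summed to 94.3 and 92.0 in ddcc, against 29.0 and 24.0 in wild type. Most of the ddcc sum was RBCS1A, a small subunit of Rubisco that was called higher in ddcc. RBCS1A stood at 69.7 and 71.3 against 4.74 and 11.4. Of the other leaf markers, RCA stood at 9.60 and 14.4 against 7.47 and 6.68 and was not called (limma adjusted p = 0.472). CAB1 and RBCS2B each had 1 read in ddcc replicate 1 and 0 in every other library. The silique wall gene SHP1 stood at 12.8 and 6.29 against 16.8 and 5.88, so the genotypes overlapped, and was not called. The other silique wall genes FUL, SHP2 and IND had no reads. The part of these markers in the results below was not tested.

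The first step listed is the epoxidation of zeaxanthin to violaxanthin by zeaxanthin epoxidase, the product of ABA1 (AT5G67030, chr5:26753469-26757402, minus strand, TAIR10.1). ABA1 stood at 583 and 605 normalised read counts in the ddcc libraries, against 778 and 619 in the wild-type libraries. Both ddcc values lay below both wild-type values, but wild-type replicate 2 was only slightly above ddcc replicate 2. ABA1 had a log2 fold change of -0.22 (SE 0.22), with a 95% interval from -0.69 to 0.24 and a limma adjusted p of 0.612. Its sign depended on scaling: it was 0.16 under quantile normalisation, and 0.17 under equal nuclear totals, a scaling that moves the median of all tested genes to 0.38. ABA1 had at least 469 reads in every library, so its depth was not the limit, and its interval excluded a change of 1 in either direction.

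The NCED enzymes cleave 9-cis-epoxycarotenoids to xanthoxin. NCED6 and NCED9 are known as the main seed forms in Arabidopsis, NCED6 in endosperm and NCED9 in embryo and seed coat, and NCED5 is known to add to seed dormancy. In these late seeds NCED5 (AT1G30100, chr1:10571310-10573365, plus strand) was the highest of the NCED members in every library, per kilobase as well. It stood at 19.4 and 47.7 normalised read counts in ddcc, against 12.9 and 18.2 in wild type. Both ddcc libraries lay above both wild-type libraries, replicate 1 only slightly and replicate 2 by more. Its log2 fold change was 0.93 (SE 0.42), with a 95% interval from 0.03 to 1.83, an unadjusted p of 0.044 and a limma adjusted p of 0.219. It was 0.31 without ddcc replicate 2 and 1.54 without ddcc replicate 1. The reads behind it were 16 and 40 against 25 and 14, a depth-corrected ratio of 2.26 with an interval of 1.48 to 3.50 for counting error only. With equal nuclear totals NCED5 was called at a log2 fold change of 1.29 and a limma adjusted p of 0.0474, which is 0.92 above the median of all genes under that scaling.

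NCED9 (AT1G78390, chr1:29490705-29492875, minus strand) stood at 6.03 and 9.55 normalised read counts in ddcc, against 4.26 and 10.1 in wild type, so the genotypes overlapped. Its log2 fold change was 0.15 (SE 0.52), with a 95% interval from -0.97 to 1.27 and a limma adjusted p of 0.904, and its sign turned to -0.0504 under quantile normalisation. NCED9 had 5 to 9 reads a library. NCED6 (AT3G24220, chr3:8761419-8763303, plus strand) fell short of the minimum mean and was not tested. Its values were 0.0233 and 1.17 in ddcc, against 2.03 and 2.62 in wild type, from 0 and 1 reads against 4 and 2. The depth-corrected read ratio of NCED6, ddcc over wild type, was 0.263 with an interval of 0.00571 to 2.17, so no difference was detectable at this depth.

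ABA2 (AT1G52340, chr1:19489794-19491650, minus strand) encodes the short-chain dehydrogenase that turns xanthoxin into abscisic aldehyde. It stood at 9.46 and 9.68 normalised read counts in ddcc, between the wild-type values of 6.27 and 14.0. ABA2 had a log2 fold change of 0.01 (SE 0.48), with a 95% interval from -1.01 to 1.04 and a limma adjusted p of 0.992, and its sign turned to -0.14 under quantile normalisation. ABA2 shares up to 349 bases with loci on the other strand, the protein-coding AT1G52330 and the long noncoding AT1G07803. Whether counting used the strand is not given in the sources used here, so its reads may include theirs.

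The last step is the oxidation of abscisic aldehyde by AAO3 (AT2G27150, chr2:11601727-11608450, plus strand), an aldehyde oxidase that is active only with a sulfurated molybdenum cofactor. AAO3 stood at 35.2 and 24.5 normalised read counts in ddcc, against 36.9 and 31.9 in wild type, and ddcc replicate 1 lay between the wild-type libraries. The log2 fold change was -0.21 (SE 0.32), with a 95% interval from -0.90 to 0.47 and a limma adjusted p of 0.762. Its sign turned to 0.16 with equal nuclear totals. AAO3 shares 985 bases with AT2G27160 on the other strand, so its count is uncertain in the same way as that of ABA2. ABA3 (AT1G16540, chr1:5659370-5665488, plus strand) encodes the sulfurase that supplies this cofactor. It stood at 72.9 and 51.2 in ddcc, against 97.9 and 73.1 in wild type. Both ddcc libraries lay below both wild-type libraries, with ddcc replicate 1 and wild-type replicate 2 nearly level. ABA3 had a log2 fold change of -0.46 (SE 0.28), with a 95% interval from -1.05 to 0.13 and a limma adjusted p of 0.370.

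**Figure D1:**
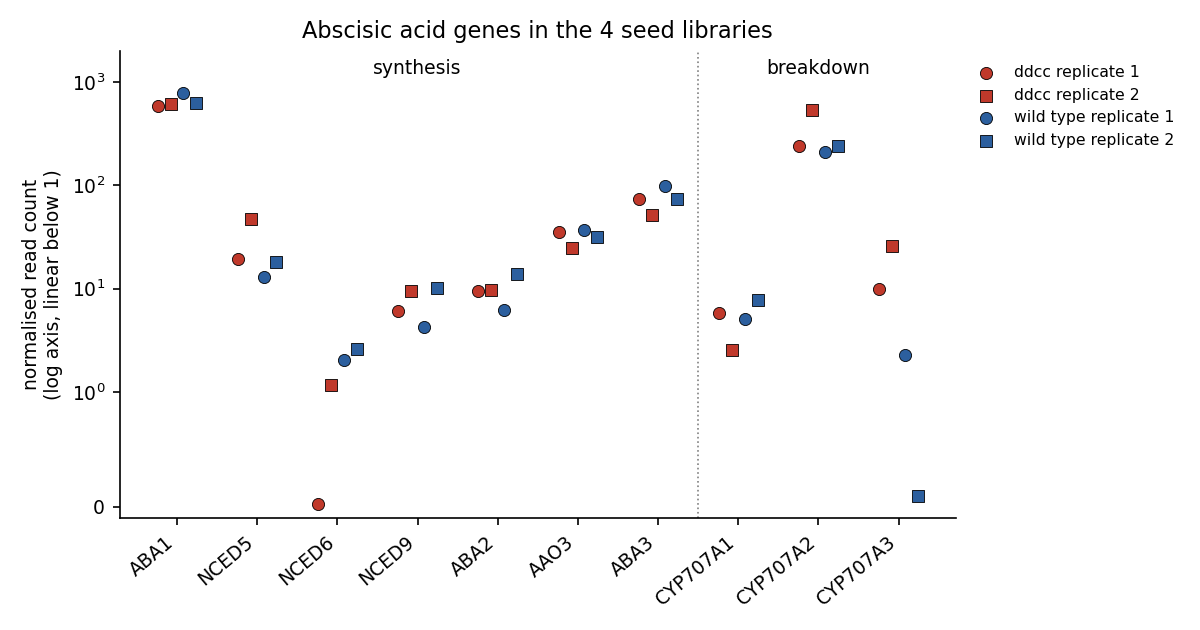
Normalised read counts (vertical axis, logarithmic above 1 and linear below) of the 10 genes in each of the 4 libraries, ddcc in red and wild type in blue, replicate 1 as circles and replicate 2 as squares. CYP707A3 shows the widest gap between genotypes, with 9.85 and 26.1 in ddcc against 2.30 and 0.0928 in wild type, while ABA1, NCED9, ABA2 and AAO3 lie close together or overlap.

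The CYP707A enzymes hydroxylate abscisic acid, and the product turns into phaseic acid. In Arabidopsis seeds CYP707A1 is known for breakdown in mid maturation and CYP707A2 for late maturation and imbibition, while CYP707A3 is known mostly from vegetative tissue, where it answers to rehydration and high humidity. The 250 bases before each annotated gene start are shown because CYP707A3, the member that was called, shares stretches of this window with CYP707A1 and not with CYP707A2. They come from the RefSeq release of TAIR10.1 and are written 5′ to 3′ on the gene's own strand. Capitals mark matches on either strand to the core of the abscisic acid response element (ACGTG, reverse CACGT) and to the RY core (CATGCA, reverse TGCATG), the latter bound by seed maturation factors of the B3 class, with overlapping matches merged. The windows are chr4:10521009-10521258 (plus strand) for CYP707A1, chr2:12499724-12499973 (minus strand) for CYP707A2 and chr5:18371022-18371271 (minus strand) for CYP707A3.
CYP707A1: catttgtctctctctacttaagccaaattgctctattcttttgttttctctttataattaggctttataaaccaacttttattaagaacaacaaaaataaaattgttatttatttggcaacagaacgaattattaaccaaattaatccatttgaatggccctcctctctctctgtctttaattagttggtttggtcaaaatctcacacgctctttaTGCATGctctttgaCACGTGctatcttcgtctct
CYP707A2: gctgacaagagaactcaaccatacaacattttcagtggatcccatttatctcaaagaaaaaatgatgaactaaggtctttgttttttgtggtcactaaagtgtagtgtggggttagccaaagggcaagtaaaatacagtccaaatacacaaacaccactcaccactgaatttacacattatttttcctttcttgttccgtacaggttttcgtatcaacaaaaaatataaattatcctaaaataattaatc
CYP707A3: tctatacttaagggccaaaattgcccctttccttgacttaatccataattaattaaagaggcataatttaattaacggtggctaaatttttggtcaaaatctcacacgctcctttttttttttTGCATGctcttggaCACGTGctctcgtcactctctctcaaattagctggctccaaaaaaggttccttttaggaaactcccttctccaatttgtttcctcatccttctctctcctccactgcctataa

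CYP707A1 and CYP707A3 each held an RY core followed by an abscisic acid response element core within a block of 20 bases, which starts 34 bases before the gene start in CYP707A1 and 127 bases before it in CYP707A3.
CYP707A1 block: TGCATGctctttgaCACGTG
CYP707A3 block: TGCATGctcttggaCACGTG
The blocks had 1 difference. Their response element core lies in the palindrome CACGTG, the G-box, which reads the same on both strands and holds the core on each. The same pair of promoters shared an unbroken run of 23 bases, tttggtcaaaatctcacacgctc, which starts 61 bases before the gene start in CYP707A1 and 162 bases before it in CYP707A3. The CYP707A2 promoter held neither motif and shared no run longer than 9 bases with either. Of 27443 promoters of this length, 22.9% held the response element core, 8.43% the RY core and 6.49% the G-box. In 195, or 0.711%, an RY core and a response element core lay with at most 20 bases between them, in either order. That rule is looser than the blocks above, which span 20 bases in all. Among the synthesis genes ABA1 held 2 response element cores, ABA3 3 and NCED9 1, and the windows of NCED5, NCED6, ABA2 and AAO3 held neither motif. A match describes the letters of a window and does not show that a factor binds there.

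**Figure D2:**
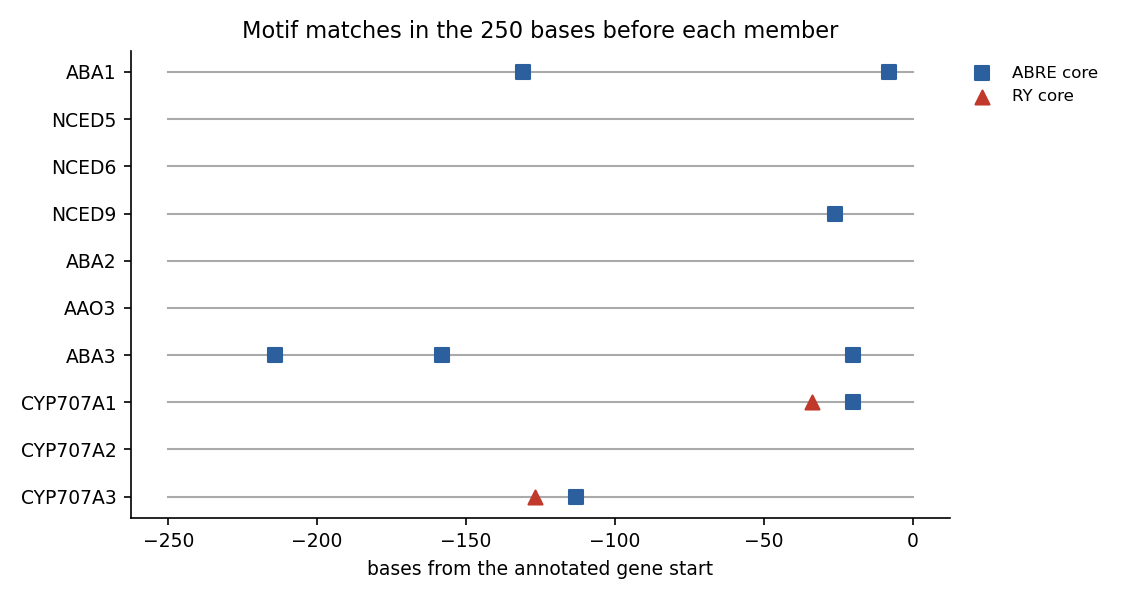
Matches to the abscisic acid response element core (ABRE core, blue squares) and the RY core (red triangles) in the 250 bases before each of the 10 genes, placed by distance in bases from the annotated gene start. CYP707A1 and CYP707A3 are the members that show both motifs, next to each other in the same order.

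CYP707A3 (AT5G45340, chr5:18368532-18371021, minus strand) stood at 9.85 and 26.1 normalised read counts in the ddcc libraries, against 2.30 and 0.0928 in the wild-type libraries. Both ddcc values lay above both wild-type values, and ddcc replicate 2 was 2.65 times ddcc replicate 1. The reads behind them were 8 and 22 against 4 and 0. The means were 18.0 ± 11.5 in ddcc and 1.20 ± 1.56 in wild type (SD, n = 2 each), and the wild-type mean lies under the level that 3 reads would give in either library. The log2 fold change was 2.81 (SE 0.61), with a 95% interval from 1.50 to 4.13 and a limma adjusted p of 0.0145, and CYP707A3 was called higher in ddcc. The depth-corrected ratio of reads was 11.8, with an interval of 4.17 to 46.2 that covers counting error only. A log2 fold change at least as large was found for 60 tested genes including CYP707A3, which is 0.380% of the genes tested. CYP707A3 entered the tested set through its ddcc libraries alone, and its fold change depends on the pseudocount, so this share describes rank only.

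CYP707A3 was higher in ddcc in each alternative run. With both ddcc values above both wild-type values, leaving out a library or changing the pseudocount, filter or model could not turn that direction. The call of CYP707A3 was sensitive to the libraries and to the model. It was lost without ddcc replicate 1 (limma adjusted p = 0.363), without ddcc replicate 2 (0.438) and without wild-type replicate 2 (0.124), and held without wild-type replicate 1 (0.0483). It was also lost without a filter on low values (0.0756) and without a variance trend (0.117). The log2 fold change was 1.45 with a pseudocount 5 times as large and at most 3.45, without ddcc replicate 1. CYP707A3 passed the filter on low values through its ddcc libraries alone.

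CYP707A2 (AT2G29090, chr2:12494826-12499723, minus strand) was the highest of the CYP707A members in every library, per kilobase as well. It stood at 239 and 532 normalised read counts in ddcc, against 209 and 239.8 in wild type. Wild-type replicate 2 and ddcc replicate 1 were level, so the genotypes overlapped, and ddcc replicate 2 stood apart at 2.22 times ddcc replicate 1. The log2 fold change was 0.67 (SE 0.30), with a 95% interval from 0.02 to 1.31, an unadjusted p of 0.0437 and a limma adjusted p of 0.218. Without ddcc replicate 2 it was 0.0942, and without ddcc replicate 1 it was 1.24. The reads were 202 and 441 against 395 and 182, a depth-corrected ratio of 1.76 with an interval of 1.57 to 1.97 for counting error only, which leaves out the spread between libraries. With equal nuclear totals CYP707A2 was called at a log2 fold change of 1.06 and a limma adjusted p of 0.0184, which is 0.68 above the median of all genes under that scaling. CYP707A1 (AT4G19230, chr4:10521259-10523961, plus strand) stood at 5.79 and 2.56 in ddcc, against 5.04 and 7.74 in wild type, and ddcc replicate 1 lay between the wild-type libraries. Its log2 fold change was -0.51 (SE 0.55), with a 95% interval from -1.69 to 0.67 and a limma adjusted p of 0.656, from 2 to 10 reads a library. CYP707A4, the remaining gene of the family and one of the other pathway genes counted below, had no reads in ddcc and 3 in wild type.

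In their coding sequences CYP707A1 and CYP707A3 were 76.7% identical, and the other pairs of the family were 58.7% to 63.2% identical. The 3 NCED members, NCED2 and NCED3 were 57.7% to 67.3% identical to each other. No member had a copy of at least 95% identity over 100 bases elsewhere in the genome.

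**Figure D3:**
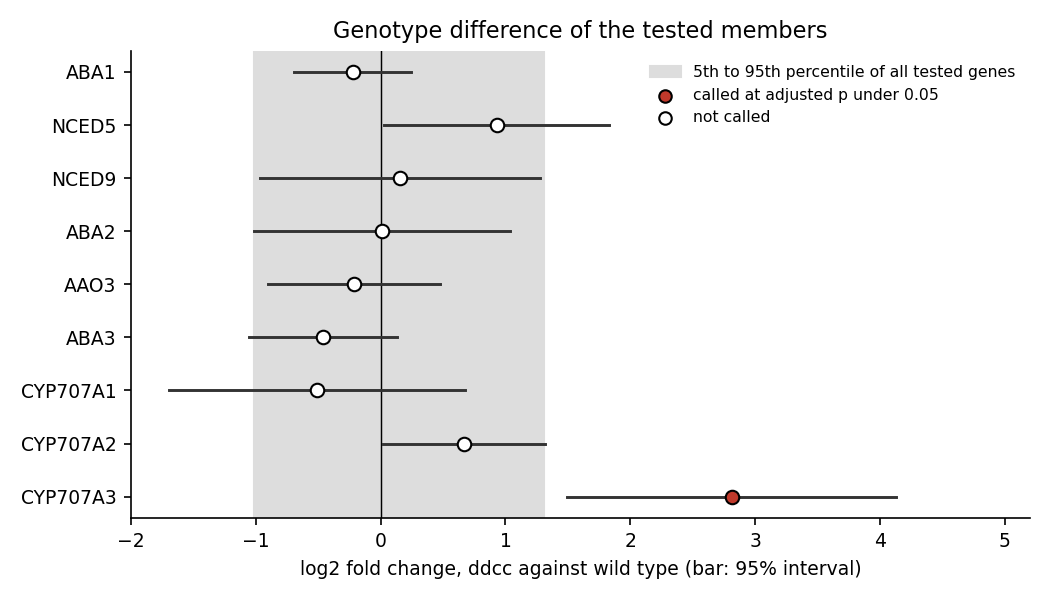
Log2 fold change of ddcc against wild type (horizontal axis) for the 9 tested genes, with 95% intervals of the limma fit as bars, filled where the adjusted p was under 0.05. The grey band runs from the 5th to the 95th percentile of all tested genes, -1.02 to 1.31, and CYP707A3 at 2.81 is the member outside it.

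Of the 9 tested genes, 1 was called in ddcc against a background of 6.48% of all tested genes, and that 1 was called higher against a background of 3.03%. In 4 of the 9, NCED5 and CYP707A3 above and ABA1 and ABA3 below, the genotypes did not overlap, where 51% of all tested genes showed no overlap, 25.7% with ddcc above and 25.3% with ddcc below. An unadjusted p under 0.05 was found for 3 of the 9, NCED5, CYP707A2 and CYP707A3, against 21.2% of all tested genes. The median log2 fold change was 0.01 over the tested members and 0.02 over all tested genes. For ABA1 and AAO3 the 95% interval lay within -1 and 1, which held for 29.3% of all tested genes. For NCED5, NCED9, ABA2, ABA3, CYP707A1 and CYP707A2 a change of 1 on the log2 scale in at least 1 direction lay inside the interval, so their levels were not shown to be alike in the genotypes.

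**Figure D4:**
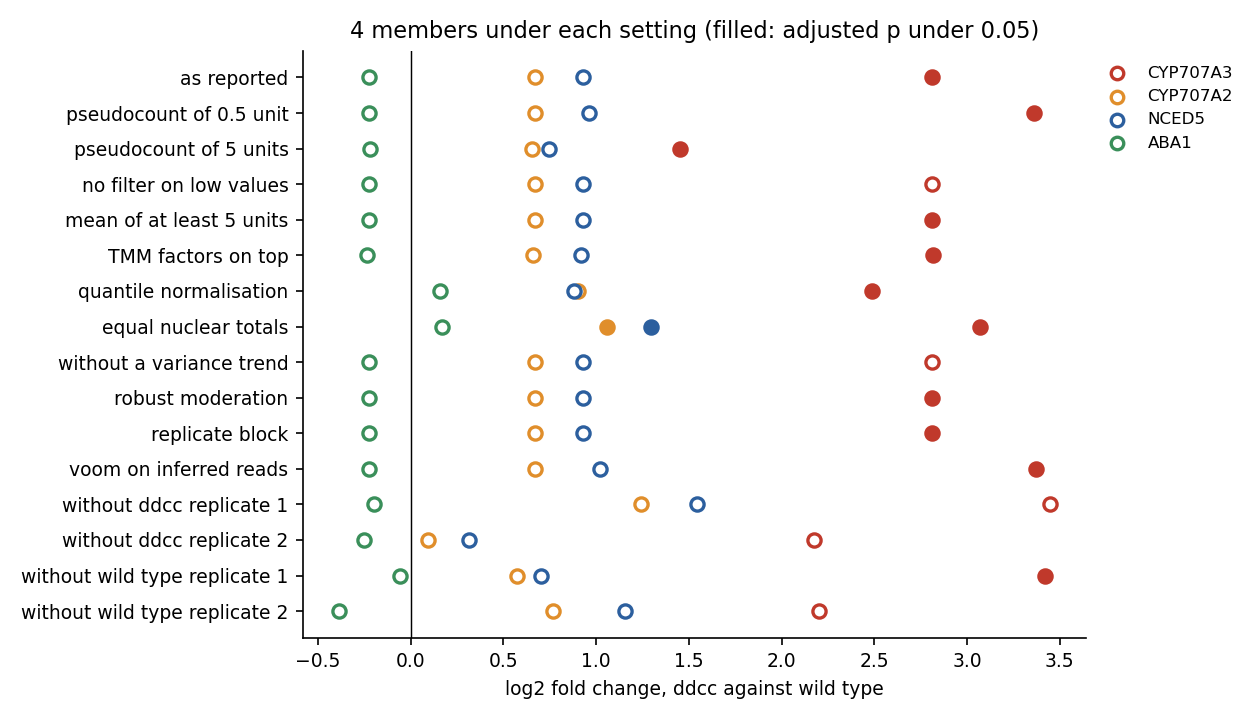
Log2 fold change of CYP707A3, CYP707A2, NCED5 and ABA1 (horizontal axis) under each setting (vertical axis), filled where the limma adjusted p was under 0.05. CYP707A3 stays at 1.45 or more but is open in 5 of the settings, and NCED5 and CYP707A2 are filled only with equal nuclear totals.

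Some members also differed between the ddcc libraries. Replicate 2 was 2.45 times replicate 1 for NCED5, 2.22 times for CYP707A2 and 2.65 times for CYP707A3. A ratio of 2 or more in that direction was found for 3 of the 9 tested members and for 6.29% of all tested genes. Among genes with a mean of at least 20, a level chosen after the values were seen, it was found for 2 of 5 members and for 1.26% of 8498 genes. In the opposite direction, CYP707A1 was the 1 tested member with replicate 1 at least 2 times replicate 2, which was found for 7.89% of all tested genes. The wild-type libraries differed too. Wild-type replicate 2 was at least 2 times replicate 1 for 2 tested members, NCED9 and ABA2, and for 7.14% of all tested genes. The reverse was found for 1, CYP707A3, and for 14.1%. The median absolute log2 difference over all tested genes was 0.329 in the ddcc pair and 0.403 in the wild-type pair.

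Summed by step, the NCED members stood at 25.5 and 58.4 normalised read counts in ddcc, against 19.2 and 30.9 in wild type. The CYP707A members stood at 255 and 561 in ddcc, against 217 and 248 in wild type. Both sums were highest in ddcc replicate 2. The NCED members made up 9.26% ± 0.241 of both sums in ddcc and 9.61% ± 2.11 in wild type (SD, n = 2 each). Within the NCED sum, NCED5 made up 76.2% and 81.6% in ddcc, against 67.1% and 58.8% in wild type, and the genotypes did not overlap. The rest of that sum came from 5 to 9 reads a library of NCED9 and 0 to 4 of NCED6, and the difference in share was not tested. Within the CYP707A sum, CYP707A3 made up 3.86% and 4.65% in ddcc, against 1.06% and 0.0375% in wild type, and CYP707A2 made up most of the rest in every library.

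Levels of different genes were compared as normalised read counts per kilobase of the longest annotated transcript, and are given as mean ± SD over 2 libraries. In wild type ABA1 stood at 269 ± 43.3 and CYP707A2 at 112 ± 10.8, each clear of its neighbour in the order. ABA3 followed at 29.4 ± 6.03. ABA2, NCED5 and AAO3 came next at 8.56 ± 4.61, 7.55 ± 1.83 and 6.67 ± 0.685, and these neighbours overlapped between libraries. NCED9 at 3.31 ± 1.91 and CYP707A1 at 3.02 ± 0.903 overlapped too. NCED6 at 1.23 ± 0.221 and CYP707A3 at 0.586 ± 0.765 were the lowest and also overlapped.

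In ddcc the first 3 places were the same, with ABA1 at 229 ± 5.88, CYP707A2 at 193 ± 104 and ABA3 at 21.3 ± 5.27 normalised read counts per kilobase. The libraries of ABA1 and CYP707A2 overlapped, since CYP707A2 was above ABA1 in ddcc replicate 2. Those of ABA3 and NCED5 overlapped too, since NCED5 stood at 23.2 and ABA3 at 17.6 in ddcc replicate 2. NCED5 at 16.3 ± 9.71 and CYP707A3 at 8.80 ± 5.62 took the fourth and the fifth place, ahead of ABA2 at 8.09 ± 0.131 and AAO3 at 5.78 ± 1.47. CYP707A3 thus went from the last place in wild type to the fifth in ddcc, where its libraries overlapped those of NCED5, ABA2 and AAO3. NCED9 at 3.59 ± 1.15, CYP707A1 at 1.98 ± 1.08 and NCED6 at 0.317 ± 0.431 closed the order in ddcc.

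The genes whose pattern over the 4 libraries was most like that of CYP707A3, by Euclidean distance between centred log2 values among 15779 other tested genes, were AT1G37162 (0.284), AT4G08430 (0.293) and AT5G12150 (0.418). All 3 were called higher in ddcc, from 7 to 17 reads a ddcc library. They had 3 or 4 reads in wild-type replicate 1 and 0 in wild-type replicate 2, so the likeness rests on few reads.

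Of the other genes of the pathway, 43 were listed and 38 tested. In ddcc 6 of them were called lower, against a background of 3.45% of all tested genes, and 0 were called higher, against 3.03%. Their median log2 fold change was -0.28, where that of all tested genes was 0.02. By list their median was 0.40 for the other cleavage dioxygenases and 0.39 for the transporters. It was -0.25 for the carotenoid genes, -0.40 for the aldehyde oxidase and molybdenum cofactor genes and -0.82 for the conjugation genes. The 6 calls depended on scaling: with equal nuclear totals CCD7 was the 1 of the 6 still called, and CCD1, AAO2 and ABCG25 were called higher. None of the 6 was called without ddcc replicate 1, without ddcc replicate 2, without wild-type replicate 1 or without a variance trend, and CCD7 and UGT71B7 were called without wild-type replicate 2. Without a filter on low values CCD7 was the 1 called.

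Of 13 tested genes that build carotenoids and xanthophylls, 2 fell and 11 did not pass the test. BCH2, a beta-carotene hydroxylase that makes zeaxanthin, the substrate of ABA1, stood at 94.3 and 84.8 normalised read counts in ddcc, against 200 and 172 in wild type. The ddcc libraries lay below both wild-type libraries, with a log2 fold change of -1.04 (SE 0.23) and a limma adjusted p of 0.0158. VDE, the violaxanthin de-epoxidase that runs the step of ABA1 in reverse, stood at 38.9 and 35.2 in ddcc, against 100 and 68.0 in wild type, again without overlap. Its log2 fold change was -1.13 (SE 0.28) at a limma adjusted p of 0.0294. VDE shares 464 bases with a locus on the other strand.

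Of 5 tested carotenoid cleavage dioxygenases outside the members, 1 fell and 4 did not pass the test. CCD7, which acts in strigolactone synthesis, stood at 4.88 and 9.50 normalised read counts in ddcc, against 55.4 and 29.9 in wild type. Both ddcc libraries lay far below both wild-type libraries, with a log2 fold change of -2.32 (SE 0.43) and a limma adjusted p of 0.00577. CCD1, a dioxygenase of broad substrate range and the gene of the list with the highest normalised read counts, stood at 135 and 132 against 97.5 and 104, with a limma adjusted p of 0.350.

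Of 10 tested aldehyde oxidase and molybdenum cofactor genes, limma called 0, as did the fit by voom on inferred reads. An unadjusted limma p under 0.05 was found for 4 of the 10, against 21.2% of all tested genes. Of these 4, AAO2 was higher in ddcc and the others were lower. A p that low was also found for 4 of 13 carotenoid genes, 2 of 5 other dioxygenases, 2 of 4 conjugation genes and 4 of 6 transporters. AAO1, an aldehyde oxidase known for auxin-related substrates, had the highest normalised read counts, at 1864 and 1937 in ddcc, against 2572 and 2761 in wild type, with a limma adjusted p of 0.247. AAO2 stood at 11.1 and 32.0 against 6.20 and 7.83, with a limma adjusted p of 0.153. AAO2 holds stretches with a copy of at least 95% identity elsewhere, so its count is uncertain.

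Of 4 tested genes of conjugation, release and other breakdown, 2 fell and 2 did not pass the test. UGT71B7 and UGT71B6 are glucosyltransferases, of which UGT71B6 is known to conjugate abscisic acid to glucose. UGT71B7 stood at 222 and 191 normalised read counts in ddcc, against 531 and 319 in wild type, with a log2 fold change of -0.99 (SE 0.25) and a limma adjusted p of 0.0313, or 0.0672 under quantile normalisation. UGT71B6 stood at 18.7 and 12.3 against 37.6 and 38.3, with a log2 fold change of -1.24 (SE 0.35) and a limma adjusted p of 0.0479, or 0.0522 with a pseudocount of 0.5 unit. Neither gene's genotypes overlapped. UGT71B6 lies wholly within a long noncoding locus of the other strand, so its count is uncertain.

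Of 6 tested transporters of abscisic acid, 1 fell and 5 did not pass the test. ABCG31, an exporter known from the endosperm, stood at 14.5 and 28.6 normalised read counts in ddcc, against 57.4 and 55.5 in wild type. The ddcc libraries lay below both wild-type libraries, with a log2 fold change of -1.40 (SE 0.34) and a limma adjusted p of 0.0257. ABCG25, the other exporter known from the endosperm, stood at 49.6 and 53.2 against 29.2 and 20.2, without overlap in the opposite direction, with a log2 fold change of 1.03 (SE 0.31) and a limma adjusted p of 0.0636.

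**Figure D5:**
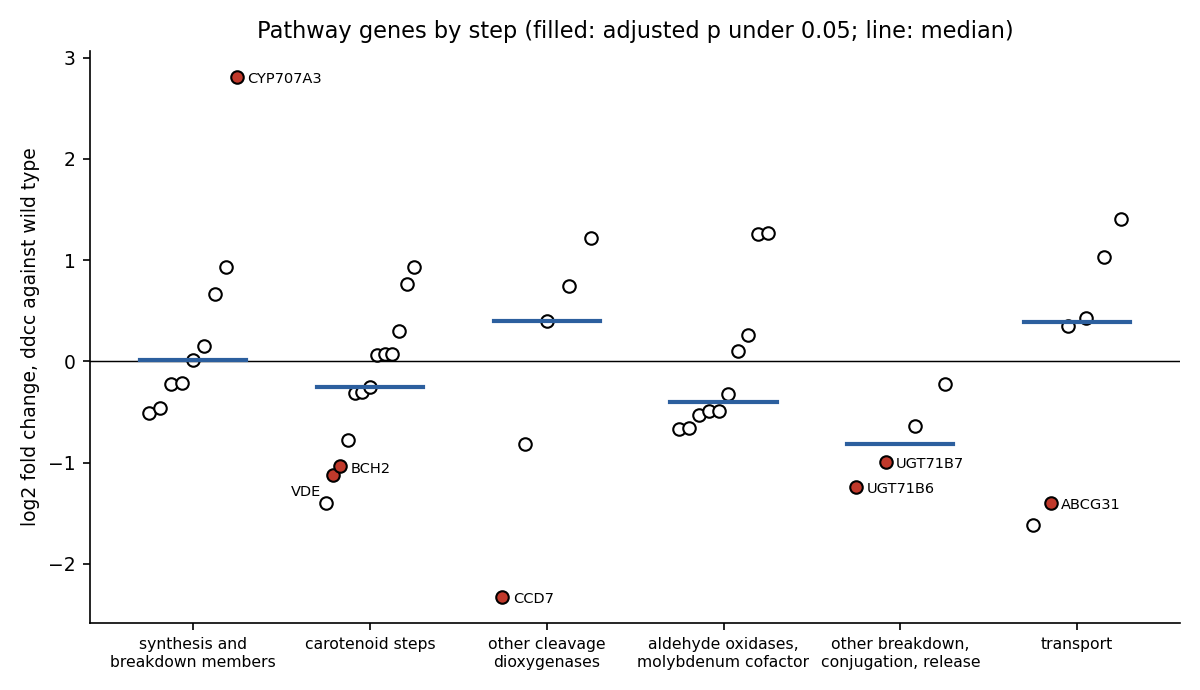
Log2 fold change of ddcc against wild type (vertical axis) of the tested genes of each step (horizontal axis), each point 1 gene, filled where the limma adjusted p was under 0.05, with the list's median as a line. The 9 members spread around 0 with CYP707A3 far above, and the 6 filled points of the other lists lie below 0.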

How the data were processed

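Libraries of whole seeds were compared, 2 of ddcc and 2 of wild type, labelled as biological replicates. Per the submitters' processing notes the authors used Bowtie 0.12.7, edgeR 3.10.5 and the TAIR10 build. How reads were mapped and counted, strand included, was not given in the sources used here. Each deposited table holds a signal, the normalised read count of 27416 loci, in numbers that are not whole. Undoing the equalisation of library sizes within each genotype gave whole reads within 0.01 for 100% of values at a dispersion of 0.0327, and these inferred reads served for depths, intervals (95%) and floors (3 reads). Intervals and floors cover counting error only, since amplified reads are not independent molecules. Both wild-type tables are headed replicate 2, per the file headers, yet hold different values. The second wild-type library was kept as wild type, as its title, description and genotype say.

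The authors' values were taken to log2 after adding 1 unit, which is 1.56, the mean column total divided by 1e6. Genes whose mean reached 1 unit were fitted with limma 3.58.1 in R 4.3.3, with genotype as the only term and a variance trend. Each gene's variance was drawn toward that trend over all genes, with 2 residual and 12.5 prior degrees of freedom. SEs, intervals and p-values of a gene thus rest largely on the spread of other genes of like level. Read ratios were corrected for depth and have exact intervals. Positions, promoters and coding identities came from TAIR10.1, in which 26719 of the 27416 loci had a row, all 10 members among them. Near copies were searched for with BLAST+ 2.17.0. The fit was tested on simulated data.

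The members and lists were chosen with earlier results of these data known. Genes named are the members, the 4 targeted genes, and in each list the most abundant gene, the one with the smallest p of the others and any called gene, besides the 3 genes most like CYP707A3. CYP707A4 and the marker genes named were chosen after their values were seen. Alternatives were pseudocounts of 0.5 and 5 units, no filter or 5 units, TMM, quantile and equal-total scaling over nuclear genes, no trend, robust moderation, a replicate block, voom on inferred reads and leaving out each library.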

Additional observations from a re-analysis of the deposited data

How the results depend on the processing

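Over the tested members and the alternatives run, 115 log2 fold changes kept direction and side of the threshold, 11 changed sign, 5 lost the call and 2 gained it. None of the 11 was called. ABA2 turned to -0.0114 with a pseudocount of 5 units and to -0.14 under quantile normalisation, and ranged from -0.48 to 0.51 when 1 library was left out. NCED9 turned to -0.0504 under quantile normalisation and ranged from -0.35 to 0.66 when 1 library was left out. ABA1 turned to 0.16 under quantile normalisation, and to 0.17 under equal nuclear totals. AAO3 turned to 0.16 under equal nuclear totals and ranged from -0.46 to 0.0351 when 1 library was left out. The cause was not tested.

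Over all genes 1023 were called, of which 46.7% were higher in ddcc. Quantile normalisation gave a higher share of 57.2%, and equal nuclear totals 87.4%. The count was 336 without a filter, 1646 with equal nuclear totals, 33 without a variance trend, and 1 to 467 when 1 library was left out. A lone library was then assumed to vary like the other genotype's pair. Members called went from 1 to 0 without a filter or a trend, to 3 with equal nuclear totals, and to 0 to 1 when 1 library was left out. Other pathway genes called went from 6 to 1 without a filter, to 0 without a trend, and to 0 to 2 when 1 library was left out. The NCED share of both sums in ddcc was 8.96% when taken per kilobase. The deviations of same-numbered libraries correlated at -0.0455 over the tested genes. With 2 libraries a genotype this cannot show whether same-numbered libraries shared a batch. With a replicate block 1381 genes and 8 other pathway genes were called, and CYP707A3 was the 1 member called, at a limma adjusted p of 1.64e-04. Depth limited NCED6, NCED9, ABA2, CYP707A1 and CYP707A3, each with under 10 reads in at least 1 library.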
